A study of Mus musculus with 6 samples.

Results

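Apod, Apoe and Ptgds encode secreted carriers of lipids, and they are described here in 6 single cells of the mouse brain. All transcripts that the deposited table assigns to these 3 of 6357 names of single genes were used, 492 of 36659 transcripts in all. Apod had 478 of these transcripts, Apoe had 13 and Ptgds had 1. The genes were chosen by their transcript levels, start sites and isoforms in these same cells, so these values are a description and carry no test.

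Apod (apolipoprotein D) and Ptgds (lipocalin-type prostaglandin D2 synthase) belong to the lipocalins, small secreted proteins that hold a lipid in a barrel-shaped pocket, and Ptgds is also an enzyme that makes prostaglandin D2. Apoe (apolipoprotein E) belongs to another family, coats lipoprotein particles and hands cholesterol to cells through receptors of the low density lipoprotein receptor family. In the brain Apoe is best known from astrocytes, Apod from oligodendrocytes and perivascular cells, and Ptgds from the meninges and oligodendrocytes.

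The data are long reads of full-length cDNA, made by STRT on the Fluidigm C1 instrument and read by PacBio sequencing, so that 1 read shows the start, the junctions and the end of 1 molecule. Reads with the same cell, gene and unique molecular identifier (UMI, a random tag put on each cDNA molecule before PCR) were merged by the authors into transcripts, the unit counted here. There were 2 VLMCs (vascular and leptomeningeal cells, fibroblast-like cells of the meninges and vessel walls), 2 Oligo1 cells (immature oligodendrocytes) and 2 Oligo5 cells (mature, myelinating oligodendrocytes). All 6 carry the labels strain CD-1, tissue brain and developmental stage embryo, with no treatment and no allele named. The study gives hippocampus and cortex as their source. It pooled reads of 2 PacBio runs, here called the short run and the long run. The long run came second, after an enrichment for long molecules and with a changed sample preparation. The run of a transcript was taken from the names of its reads. The stage embryo is that of the labels, while the study calls the Oligo5 cells mature and myelinating. The labels call the VLMCs oligodendrocyte progenitor cells, and the name VLMC is that of the study. Of 10 VLMC markers, 8 and 9 had transcripts in these 2 cells (4.15% and 5.22% of the cell), 0 of 10 oligodendrocyte markers did, and of 10 progenitor markers Pdgfra alone did, with 5 and 3 transcripts. The oligodendrocyte markers made up 9.19% to 14.3% of the 4 oligodendrocytes. The animal of each cell was not named, so a cell type counts as 1 sample, no test compares cell types, and the 95% intervals (exact for levels, Wilson for shares) cover counting error only.

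The VLMCs had 2338 and 4689 transcripts, the Oligo1 cells 11483 and 6043 and the Oligo5 cells 5895 and 6211, and no cell barcode was shared by 2 cells (0 of 6). A count of 0 allows, at 3 counts, a level of up to 12.8 per 10000 transcripts in VLMC-1, 6.40 in VLMC-2 and 2.61 to 5.09 in the oligodendrocytes. Markers of other cell types were present as well. Of 10 mural cell markers, Vtn and Pdgfrb were seen in both VLMCs, with 12 transcripts in VLMC-1 (0.513% of the cell) and 38 in VLMC-2 (0.810%), 35 of the latter from Vtn, while the other 8, Rgs5 among them, were at 0, and the list was at 0 in the 4 oligodendrocytes. Of 10 endothelial markers Itm2a alone was seen in the VLMCs, with 1 and 14 transcripts. Neuron markers had 34 transcripts of 6 of 10 genes in Oligo5-2, led by Snap25 with 19, and endothelial markers had 11 transcripts of 5 of 10 genes in Oligo5-1. The part of all these markers in the results on VLMCs and Oligo5 was not tested.

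The sequences that carry the findings on the 5′ part of the genes are given first, on GRCm38 (mm10), read 5′ to 3′ on the minus strand, where all 3 genes lie, from the GENCODE M21 transcripts. The first pair surrounds the most used start of Apod (chr16:31314584-31314608), with its first transcribed base in capitals, and the stretch upstream of it (chr16:31314616-31314635), with the letters TATAA in capitals. The second pair shows the same for Apoe (chr7:19699040-19699064 and chr7:19699072-19699091). The last line spans the 5′ junction of Apod exon 2 (chr16:31314457-31314486), with the AG before the usual and the AG before the displaced first base of the exon in capitals.
Apod start: gccacacacctcActtggaggattc
Apod upstream: gggagccTATAAagtgactt
Apoe start: atccgatcccctGctcagaccctgg
Apoe upstream: ggagtccTATAAttggaccg
Apod exon 2 acceptor: ccactgtcttcatttcAGttAGaaactgac

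Apod was abundant in VLMCs, present in Oligo5 cells and not seen in Oligo1 cells. VLMC-1 had 86 transcripts, 368 per 10000 (295 to 452), and VLMC-2 had 261, 557 per 10000 (493 to 626). Oligo5-1 had 60 transcripts, 102 per 10000 (77.8 to 131), and Oligo5-2 had 71, 114 per 10000 (89.4 to 144). Oligo1-1 and Oligo1-2 had 0, which allows up to 2.61 and 4.96 per 10000. Both VLMCs were thus above both Oligo5 cells, and both Oligo5 cells above both Oligo1 cells, without overlap of the intervals. By counts of molecules, which are not divided by gene length, Apod held rank 1 among the 950 genes of VLMC-1 and among the 1630 of VLMC-2, and rank 5 among the 2114 genes of Oligo5-1 and the 2498 of Oligo5-2.

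Over the 2 cells of each type, the level of Apod was 494 per 10000 in VLMCs and 108 in Oligo5, a ratio of 4.56 (exact interval, 3.72 to 5.62). Set against 3 transcripts over both Oligo1 cells (1.71 per 10000), Apod was 63.2-fold higher in Oligo5 and 288-fold higher in VLMCs. These folds are no lower bounds, since they leave out the counting error of the higher group. The exact upper limit in Oligo1 was 2.10 per 10000. VLMC-1 had less than VLMC-2, by a ratio of 0.661 (0.512 to 0.846), and the 2 Oligo5 cells lay within counting error of each other (0.890, 0.621 to 1.27). The ratio of VLMCs to Oligo5 ranged from 3.47 to 5.31 over 7 other ways of counting, with the lowest value after UMIs 1 substitution apart had been merged. Of the 10 VLMC markers, 0 had a transcript in either Oligo5 cell, where Apod had 131. Some other genes seen in both VLMCs had transcripts in Oligo5-1, with 7 of Sparc, 6 of Itm2a and 4 of Slc1a3. In Oligo5-2 these genes had 3, 0 and 0. Whether material of VLMCs had a part in the Apod counts of Oligo5 cells was not tested. Among 669 genes with 10 or more transcripts, 85 (12.7%) had both VLMCs above all 4 oligodendrocytes, 97 (14.5%) had both Oligo5 above both Oligo1 cells, and 8, Apod among them, had both. Of the same 669 genes, Apod, Flrt2, Pmp22 and Sparc were the 4 seen in both VLMCs and both Oligo5 cells and in neither Oligo1 cell.

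**Figure D1:**
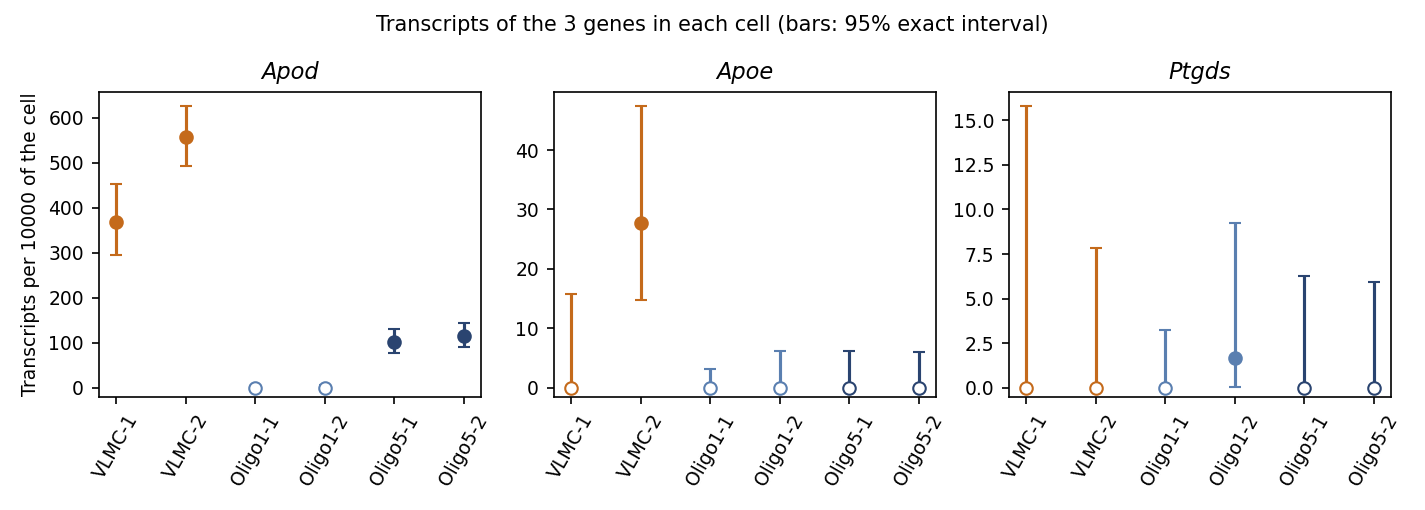
Transcripts of Apod, Apoe and Ptgds per 10000 transcripts of each cell (y axis, a separate linear scale for each gene) in the 6 cells (x axis), with exact 95% intervals as bars and open circles for a count of 0. Apod stands at 368 and 557 in the VLMCs, at 102 and 114 in the Oligo5 cells and at 0 in the Oligo1 cells, Apoe has 1 filled point and Ptgds rests on 1 transcript.

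Apoe was seen in a single cell. VLMC-2 had 13 transcripts, 27.7 per 10000 (14.8 to 47.4), which put the gene at rank 34 of the cell, shared by 4 genes. VLMC-1 had 0, which allows up to 12.8 per 10000, just below the lower bound in VLMC-2, and the exact interval of VLMC-1 (0 to 15.8) overlapped that of VLMC-2. The 4 oligodendrocytes had 0 of 29632 transcripts (exact upper limit 1.24 per 10000), against 18.5 per 10000 (9.85 to 31.6) over the 2 VLMCs. Set against 3 transcripts over the oligodendrocytes, this is 18.3-fold higher, which is no lower bound. All Apoe transcripts came from VLMC-2. In the same cell, 2 of 10 astrocyte markers had transcripts, Slc1a3 with 21 and Gjb6 with 8, and 8 of 10, among them Aqp4 and Gfap, were at 0. Over the 6 cells the astrocyte list ranged from 0% to 0.618% of the transcripts, the highest value being that of VLMC-2, while it made up 0.214% of VLMC-1. Of 10 microglia markers, Tyrobp alone had 1 transcript. The part of these markers in the Apoe result was not tested.

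Ptgds had a single transcript from a single read, in Oligo1-2, which is 1.65 per 10000 (0.0419 to 9.22). It was not seen in the other 5 cells, and no difference between cells was detectable at this depth. In the VLMCs a count of 0 allows up to 12.8 and 6.40 per 10000.

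The surrounding genes of lipid transport and prostaglandin synthesis were sparse. Of 69 such genes, the 3 carriers included, 26 had any transcript, 6 had 10 or more, and 43 had none. Of the 6, Apod alone had both VLMCs above all 4 oligodendrocytes, and Apod and Vldlr had both Oligo5 cells above both Oligo1 cells. Among the receptors, Vldlr, which binds Apoe-containing particles, had 4, 3, 4 and 5 transcripts in Oligo1-1, Oligo1-2, Oligo5-1 and Oligo5-2, and 0 in both VLMCs. Lrpap1, a chaperone of this receptor family, had 7 transcripts in VLMC-2, and of the oligodendrocytes Oligo1-1 had 4 and Oligo5-2 had 1. By level, Lrpap1 had 14.9 per 10000 in VLMC-2, 0 in VLMC-1 and 1.69 over the oligodendrocytes, where Vldlr had 5.40. Both genes had few transcripts and no interval was computed, so a difference between cells was not tested.

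Of the proteins that handle lipids inside lysosomes, Npc2, which passes cholesterol on within the lysosome, had 42 transcripts, with 0 and 3 in the VLMCs, 19 and 9 in the Oligo1 cells and 5 and 6 in the Oligo5 cells. Scarb2, a lysosomal membrane protein, had 2 transcripts in VLMC-1, 7 and 2 in the Oligo1 cells and 2 in Oligo5-1. The other 20 genes that were seen had 1 to 9 transcripts each.

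By the share of each gene's levels that fell in the same cells, over 6 cells and 125 genes with 30 or more transcripts, the genes most like Apod were Sparc, Itm2b and Sparcl1, with overlaps of 0.851, 0.842 and 0.830, where 1 would be the same pattern. Sparc, a secreted protein of the extracellular matrix, had 42.8 and 104 transcripts per 10000 in VLMC-1 and VLMC-2, 11.9 and 4.83 in Oligo5-1 and Oligo5-2, and 0 in both Oligo1 cells. Itm2b was also seen in Oligo1 cells (15.7 and 6.62 per 10000), which Apod was not. For Apoe, Col1a2 and Lum were among the genes most like it (0.681 and 0.671), and both were seen in both VLMCs and in no oligodendrocyte. As all Apoe transcripts were in VLMC-2, the measure shows only the share of each gene's levels in that cell. For Ptgds, with 1 transcript, the measure shows only which genes were highest in Oligo1-2.

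The gene Apod (ENSMUSG00000022548.14) extends from 31296192 to 31314808 on the minus strand of chromosome 16. The annotated transcript Apod-203 has 6 exons. Exon 1 (31314552 to 31314808) and exon 2 (31314399 to 31314468, 70 bp) are noncoding, exon 3 (31311014 to 31311164) holds the start codon, exon 4 (31303410 to 31303531) and exon 5 (31300395 to 31300483) are coding, and exon 6 (31296192 to 31297576) holds the stop codon and the 3′ UTR. Apod-202 lacks exon 2. The coding sequence is 567 bases long without the stop codon.

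Most Apod transcripts reached the annotated first exon, which makes their 5′ part readable. This was so for 62 of 86 (72.1%, 61.8% to 80.5%) in VLMC-1, 216 of 261 (82.8%, 77.7% to 86.9%) in VLMC-2, 45 of 60 (75.0%, 62.8% to 84.2%) in Oligo5-1 and 67 of 71 (94.4%, 86.4% to 97.8%) in Oligo5-2. The share in Oligo5-2 lay above the intervals of the other 3 cells, while its own interval overlapped that of VLMC-2. Over all transcripts of these cells it was 37.6%, 47.6%, 19.9% and 49.5%, and over 214 genes with 20 or more transcripts the median was 39.0%, with 10.7% of them above Apod. All 390 of these transcripts began inside exon 1. By exact position, 0 of 478 began within the bases of exon 2, but 1 transcript of VLMC-2 began 2 bp and 1 of Oligo5-2 75 bp upstream of it, in intron 1, and ran unspliced into exon 2, each with 1 read and within the first exon of the annotated Apod-201. Upstream of exon 4, 3 transcripts began in intron 3, at 31304751 (8 reads) and 31304750 (1 read) in VLMC-2 and at 31304376 (12 reads) in VLMC-1, which is 1220, 1219 and 845 bp before that exon, and ran unspliced into it.

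The most used 5′ end of Apod was the same base in VLMCs and Oligo5 cells, position 31314596, 212 bp downstream of the annotated 5′ end of Apod-203. The annotated Apod-201, which is not linked to RefSeq, starts close by, at 31314594. Ends up to 5 bp apart were grouped as a single site (31314588 to 31314601), which 57 of 62 transcripts of VLMC-1 used (91.9%, 82.5% to 96.5%), as did 210 of 216 of VLMC-2 (97.2%, 94.1% to 98.7%), 42 of 45 of Oligo5-1 (93.3%, 82.1% to 97.7%) and 62 of 67 of Oligo5-2 (92.5%, 83.7% to 96.8%). These intervals overlapped in all 4 cells. Exactly at this base were 42, 157, 35 and 44 transcripts, 278 of 390 in all (71.3%, 66.6% to 75.5%). The share at the single base was between 65.7% and 77.8% in the 4 cells. The other 19 transcripts were spread over 8 sites, 5 upstream with 8 transcripts and 3 downstream with 11, and each site had 1 to 4 transcripts.

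Of the 9 start sites, 8 were seen in VLMCs and 6 in oligodendrocytes, and 5 in both, which is 62.5% of the VLMC sites and 83.3% of the oligodendrocyte sites. The 5 shared sites held 98.2% of the VLMC transcripts and 99.1% of the oligodendrocyte transcripts. Over 37 genes with 5 or more first-exon transcripts in VLMCs and in oligodendrocytes, 30 (81.1%) had the same most used start site in both, Apod among them. A most used start over 100 bp downstream of the 5′ end annotated in RefSeq-linked transcripts was found in 30 of 77 genes with 20 or more first-exon transcripts (39.0%). Of the Apod UMIs of Oligo5-1, 11 of 60 also occurred among the Apod UMIs of VLMC-2 (18.3%), against 11.6% of the transcripts of its other genes. In Oligo5-2 this was 7 of 71 (9.86%), against 11.7%. With VLMC-1 in place of VLMC-2, it was 3 of 60 in Oligo5-1 (5.00%, against 3.44%) and 3 of 71 in Oligo5-2 (4.23%, against 3.75%). No interval was computed for these shares, and an excess was not tested.

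The letters TATAA begin 32 bases upstream of the most used base of Apod, in the second sequence line above, and also 32 bases upstream of the most used base of Apoe (19699052), in the fourth. TATAA was looked for on the strand of the transcript, whole within 40 to 20 bases upstream of a start. At annotated starts, 1111 of 32851 promoter windows of RefSeq (GRCm38) held it there (3.38%), and on either strand (TATAA or TTATA) anywhere in the 300 bases of these windows it was in 24.9%. At the single Ptgds start it was not found in this window. A match is a description of the letters and not of a site.

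**Figure D2:**
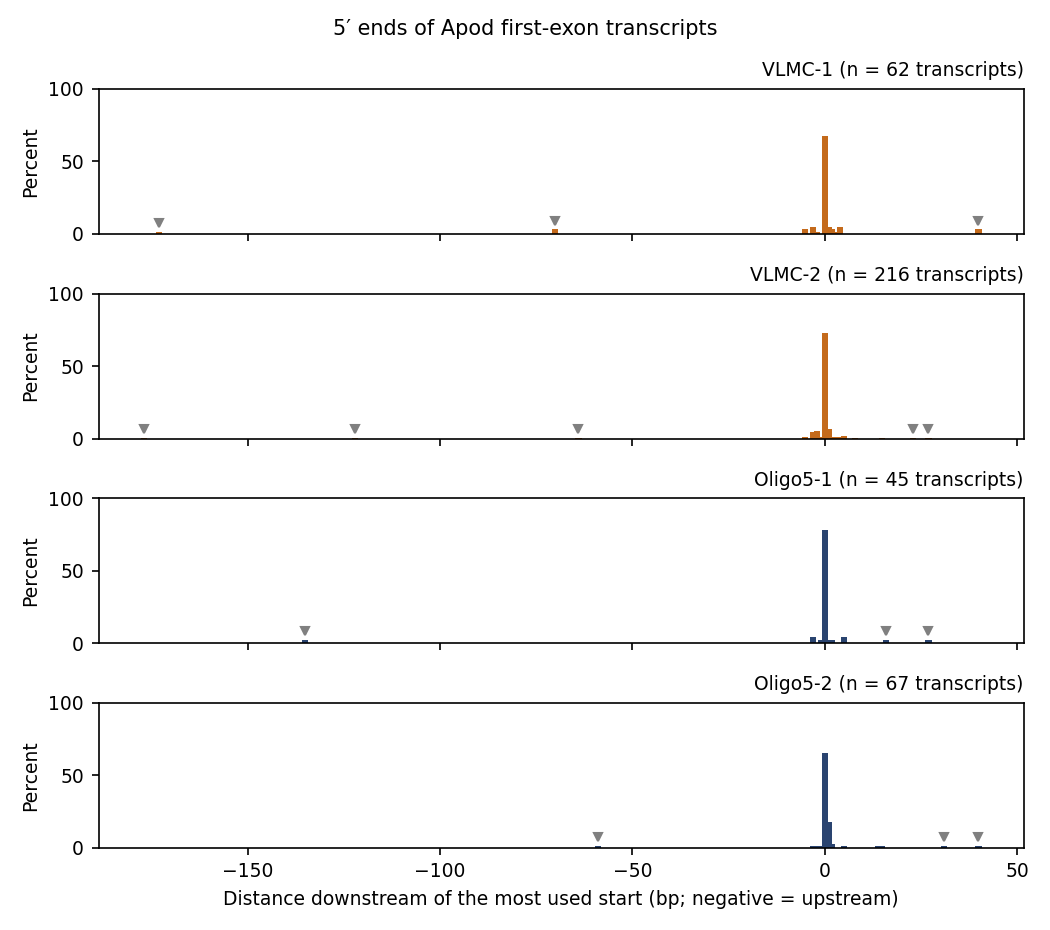
5′ ends of first-exon transcripts of Apod in the 4 cells that had them, as the percent of the cell's transcripts (y axis) at each distance in bp from the most used base (x axis, negative values upstream), with grey triangles over ends more than 15 bp away. In each cell between 65.7% and 77.8% of the ends fall on 1 base. Most of the other ends lie on bases close by, such as 12 transcripts 1 bp downstream in Oligo5-2. The start sites further away hold single or few transcripts.

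Exon 2, a noncoding exon, was included in most but not all Apod transcripts in each of the 4 cells. Among first-exon transcripts with intron 1 spliced, VLMC-1 had 51 of 60 with it (85.0%, 73.9% to 91.9%), VLMC-2 had 167 of 215 (77.7%, 71.7% to 82.7%), Oligo5-1 had 30 of 45 (66.7%, 52.1% to 78.6%) and Oligo5-2 had 51 of 65 (78.5%, 67.0% to 86.7%). All 4 intervals overlapped. Over the 2 cells of a type, the share was 79.3% in VLMCs (218 of 275) and 73.6% in Oligo5 (81 of 110), and no difference was detectable at this depth. Exon 2 was included in 286 of 370 transcripts from the main start site (77.3%) and in 13 of 15 from the other sites (86.7%, 62.1% to 96.3%). Intron 1 was retained in 5 transcripts, 2 in VLMC-1, 1 in VLMC-2 and 2 in Oligo5-2. Of these, 4 began at 31314556 or 31314565, within the first exon of the annotated Apod-201 (31314399 to 31314594), which also runs through intron 1, and 1 began at 31314598.

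An optional inner exon of this kind was rare in these cells. Of 514 inner exons spanned by 20 or more transcripts, 12 (2.33%) were skipped in 10% to 90% of them, exon 2 of Apod among these. The coding inner exons of Apod were skipped in 0% to 0.474% of the transcripts that spanned them. From the most used start, the 5′ leader is 143 bases long with exon 2 and 73 bases without it, and neither form has an ATG before the start codon.

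The 5′ junction of exon 2 had a second position, exactly 4 bp downstream of the usual one, after the next AG of the last sequence line above. This was used in 5 of 51 transcripts with exon 2 in VLMC-1 (9.80%), 18 of 167 in VLMC-2 (10.8%, 6.93% to 16.4%), 0 of 30 in Oligo5-1 (0 to 11.4%) and 4 of 51 in Oligo5-2 (7.84%, 3.09% to 18.5%). All 27 displaced junctions of 299 (9.03%, 6.28% to 12.8%) lay at the same base, 31314464, and the other 272 at the annotated base, 31314468. The value in VLMCs was 10.6% (23 of 218) and that in Oligo5 4.94% (4 of 81), all of the latter from Oligo5-2, and their intervals overlapped. The displaced form shortens the leader from 143 to 139 bases and likewise brings in no ATG.

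Of the 10 inner boundaries of Apod, this one alone was displaced by more than 1 bp in 5% or more of the transcripts. Over all genes, 42 of 984 boundaries with 20 or more transcripts were (4.27%), and 0.964% of all boundary positions pooled. The other noncoding boundaries of Apod (the ends of exons 1 and 2 and the start of exon 3) were displaced in 0% to 0.332%, and the coding ones in 0.238% to 1.23%. By cell, the 5′ junction of exon 6 reached 7.27% in Oligo5-1 (4 of 55, 2.86% to 17.3%). There, 4 transcripts used 31297665, 89 bp upstream of the base annotated in Apod-203. This position is itself annotated, as the 5′ junction of exon 3 of Apod-206 (31297420 to 31297665). Of these 4, 3 lacked exon 2 and had UMIs that were shifts of each other by 1 or 2 bases, and whether these were separate molecules was not tested.

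**Figure D3:**
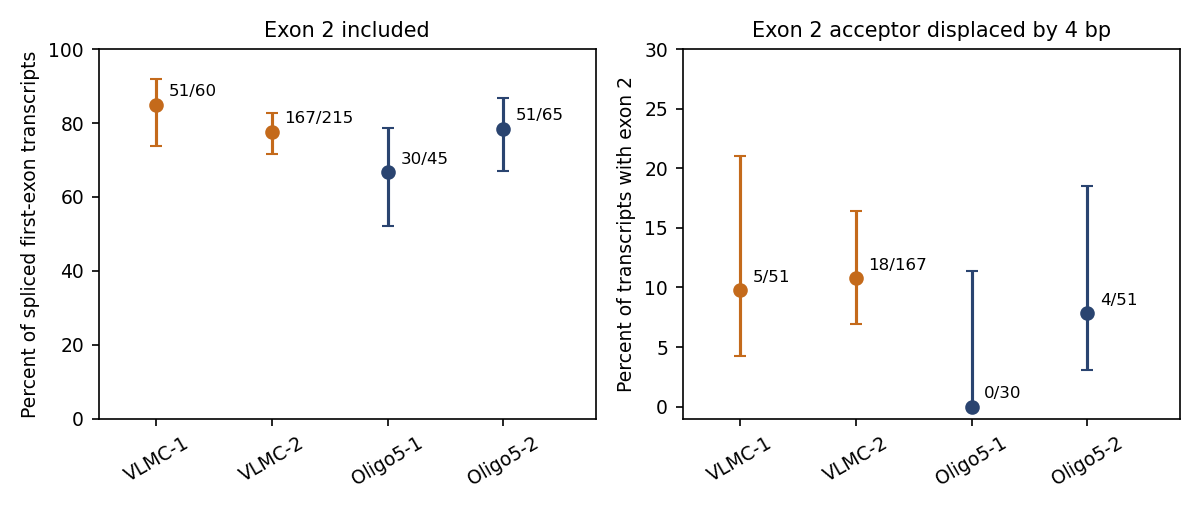
Percent of spliced first-exon transcripts of Apod with exon 2 (left, y axis from 0 to 100) and percent of transcripts with exon 2 whose 5′ junction lay 4 bp downstream (right, y axis to 30) in each of 4 cells, with counts beside the points and Wilson 95% intervals as bars. The intervals of all 4 cells overlap on the left, and on the right Oligo5-1 stands at 0 of 30 with an upper bound of 11.4%.

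All coding junctions of Apod-203, and an end past the stop codon, were found in 59 of 62 first-exon transcripts of VLMC-1 (95.2%), 200 of 216 of VLMC-2 (92.6%), 38 of 45 of Oligo5-1 (84.4%) and 62 of 67 of Oligo5-2 (92.5%), with overlapping intervals. Of the other 31 of 390, 15 ended before the stop codon and 16 had another junction in the coding part, by 2 bp or more, each in 1 to 4 transcripts. Exon 5 was skipped in 2 transcripts of VLMC-1, in 1 of them together with exon 4.

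Most transcripts also shared a 3′ end. The main end site (31297113 to 31297128) was used by 59 of 62 transcripts of VLMC-1 (95.2%), 205 of 216 of VLMC-2 (94.9%), 43 of 45 of Oligo5-1 (95.6%) and 65 of 67 of Oligo5-2 (97.0%). It lies 928 bp before the annotated end of Apod-203, and 2 bp from that of Apod-202 at 31297122, and gives a 3′ UTR of 221 bases. In the 30 bases that end at the most used base, 31297120, the polyadenylation signal AATAAA (capitals) begins 18 bases upstream of it.
Apod main end: gctagcccaatAATAAAcattttgctgatc
A second group of 14 transcripts, at 31297382 and 31297388 to 31297390, ended inside the coding part of exon 6. These had no AATAAA in their last 30 bases. The 20 bases that follow the most used base of this group, with each A in capitals, are shown to set them beside the main end, since 13 of the 20 are A, against 2 of 20 after the main end.
Apod after the early end: gAAAAAAtgAcAAcAAcAgA
Apod after the main end: AgctgtgtttcctgtggAtt
The early end was used in 1 transcript of VLMC-1, 10 of VLMC-2, 2 of Oligo5-1 and 1 of Oligo5-2. The annotated end itself was approached by 1 transcript of Oligo5-2, at 31296211.

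An isoform is taken as a start site, a set of junctions and an end site. The 390 first-exon transcripts of Apod formed 36 isoforms, 23 of them with 1 transcript. Isoform 1, from the main start to the main end with all 6 exons, had 240 transcripts (61.5%), and made up 62.9% of VLMC-1 (39 of 62), 63.0% of VLMC-2 (136 of 216), 53.3% of Oligo5-1 (24 of 45) and 61.2% of Oligo5-2 (41 of 67). Isoform 2, the same without exon 2, had 70 transcripts (17.9%), with 12.9%, 18.5%, 24.4% and 16.4% in the same order. Isoform 3, with the displaced junction of exon 2, had 27 (6.92%), with 8.06%, 8.33%, 0% and 5.97%. The isoforms thus kept the same order in each cell, with isoform 1 first and isoform 2 next, but the intervals of isoforms 2 and 3 overlapped in VLMC-1 and Oligo5-2. Spliced, they measure 934, 864 and 930 bases, and all 3 have the annotated coding junctions. Over 216 genes with 10 or more first-exon transcripts, the median share of the most used isoform was 40%, and 21.3% of the genes had a larger share than Apod.

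**Figure D4:**
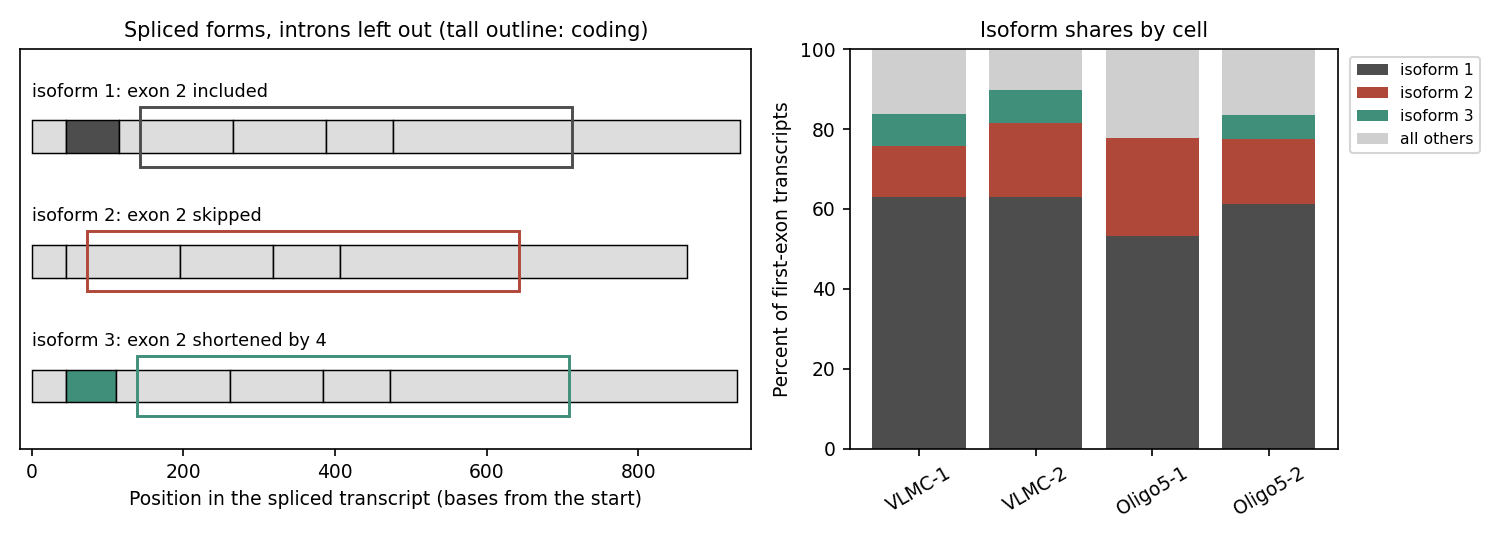
Left, the 3 most used Apod isoforms drawn to scale by spliced length in bases, with introns left out, exon 2 filled and the coding part outlined. Right, their percent of first-exon transcripts in 4 cells as stacked bars from 0 to 100, where isoform 1 takes 53.3% to 63.0% and Oligo5-1 has no isoform 3.

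The isoforms of VLMCs and oligodendrocytes overlapped in their most used members. VLMCs had 25 isoforms and Oligo5 cells 18, with 7 in both, 28.0% and 38.9% of each set. Of all 36 isoforms, 23 had 1 transcript and so could not be in both sets. The sets also differed in depth, with 278 VLMC and 112 Oligo5 transcripts. The part of depth in the overlap was not tested, and no such overlap was computed over other genes. The 7 isoforms in both sets held 91.4% of the VLMC transcripts (254 of 278, 87.5% to 94.1%) and 86.6% of the Oligo5 transcripts (97 of 112, 79.1% to 91.7%). By junctions alone, 4 sets were in both, with 96.4% and 92.0% of the transcripts.

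Transcripts of Apod that did not reach exon 1 began further downstream in every cell that had the gene. Of 478 transcripts, 18 began in exon 3, 10 in exon 4, 9 in exon 5 and 45 in exon 6, and 6 began outside the exons of Apod-203. Of the 45 in exon 6, 15 began between 31297524 and 31297531, 6 each in VLMC-1 and VLMC-2, 2 in Oligo5-1 and 1 in Oligo5-2.

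Apoe (ENSMUSG00000002985.16, minus strand of chromosome 7) had 11 first-exon transcripts, all from VLMC-2, and 2 that began in the last exon. Of the 11, 9 began in 1 site, 19699045 to 19699052, with 6 at the last base, which is the 5′ end of the annotated Apoe-201 and lies 136 bp downstream of that of Apoe-206. Of the other 2, 1 began at 19699094, and 1, with 1 read, at 19698428. The latter lies within exon 2 of the annotated Apoe-204 (19698404 to 19698473), whose first exon is further upstream (19699011 to 19699038). It counted as a first-exon transcript by its overlap with the first exon of Apoe-205 (19698188 to 19698407). Whether it is a separate start or a shortened cDNA was not tested. All 13 ended in 1 site, 19696270 to 19696274, where the signal AATAAA again began 18 bases upstream of the most used end base.
Apoe end: ggcccttgcttAATAAAgattctccgagca
The 9 transcripts of the main site shared 1 set of junctions over 4 exons and made up 81.8% of the 11 (9 of 11). These junctions are those of Apoe-206, with exon 2 from 19698188 to 19698253. Exon 2 of Apoe-201 extends to 19698272, so the 9 transcripts share with Apoe-201 the start site but not this junction.

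The Ptgds transcript (ENSMUSG00000015090.13, minus strand of chromosome 2) had 7 exons, from 25469684, 158 bp downstream of the annotated 5′ end of Ptgds-201, to 25466711, 2 bp before its annotated 3′ end. Its exon 6 was the short form, 25467320 to 25467345, of the annotated Ptgds-203 and not that of Ptgds-201. With 1 read, no share can be given.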

How the data were processed

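For 6 single cells the authors deposited 1 table of transcripts whose values are counts of the reads that share a UMI in each transcript, without normalization, beside the positions of its aligned blocks. They split concatemers, discarded molecules below a length limit on a gel, kept uniquely aligned reads with a barcode at both ends and poly-A, aligned them to mm10 (the submitters' processing notes name GSNAP, the study names GMAP), joined blocks less than 40 bp apart and annotated them by RefSeq.

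Cells were identified by the 6-base barcode in the labels. Block starts were taken as counted from 0. First-exon transcripts overlap a first exon of a RefSeq-linked GENCODE M21 transcript of the gene. Ends within 5 bp were chained into sites over all cells, and junctions within 1 bp taken as the same. Levels are per 10000 transcripts with exact, and shares with Wilson, 95% intervals. Folds against 0 used 3 counts over the group and leave out the counting error of the higher group. The steps were checked on simulated data. Of 6357 gene names, 6132 matched GENCODE by symbol. The genes, the marker and lipid lists and the alternatives were chosen with earlier results of these data known. Of the lipid list, genes with 10 or more transcripts are named, and likeness was taken among genes with 30 or more. A gene that this rule names is not reported here. A second way of merging UMIs (a shift by 1 base included) was added after seeing the data. Python 3.11.15, pandas 2.3.3, numpy 2.4.6, scipy 1.17.1 and matplotlib 3.10.9 were used. A correction of UMI errors is not given in the sources used here, so such errors could raise counts, and molecules below the gel limit are missing.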

Additional observations from a re-analysis of the deposited data

How the results depend on the processing

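No paired analysis was possible because the results come from no test, and replicate numbers of single cells pair nothing. Of 133 values recomputed under other settings, 105 stayed within the main 95% interval, and 28 moved out of it. The short run and long run settings both include the transcripts read in both runs, so they overlap. Apod in VLMCs (494 per 10000) was 562 with UMIs read 2 or more times, 325 with UMIs 1 substitution apart merged, 334 with shifts merged as well, 637 by reads, 396 with first-exon transcripts and 595 in the short run, and Apod in Oligo5 (108) was 84.2 with shifts merged. Closely similar UMIs made up 1.29%, 1.11%, 1.92% and 1.05% of the pairs of Apod UMIs in VLMC-1, VLMC-2, Oligo5-1 and Oligo5-2. Between Apod and other genes, whose molecules are separate, they made up 0.911%, 0.947%, 1.11% and 0.985% of the pairs. Merging can thus also join separate molecules. In VLMCs, the first-exon share was 84.6% with UMIs read 2 or more times and 85.9% in the long run. Exon 2 inclusion in VLMCs was 84.8% in the long run. Over all cells, exon 2 was in 77.4% of transcripts read only in the long run (41 of 53). It was in 72.3% of those read only in the short run (146 of 202) and in 86.2% of those read in both (112 of 130). In Oligo5 the first-exon share was 92.0% in the long run. The start site share in VLMCs was 97.8% with UMIs read 2 or more times and with ends joined within 10 or 20 bp, and 98.2% in Oligo5 with these joins. The end site share in VLMCs was 97.0% with substitutions merged, and the VLMC share in common isoforms was 94.6% with shifts merged. With every end position distinct, the start site shares were 71.6% (VLMCs) and 70.5% (Oligo5), the end site shares 49.6%, 43.8% and 45.5% (Apoe), the major isoform shares 25.9%, 19.6% and 18.2% (Apoe), and the shares in common isoforms 70.5% and 77.7%. The causes were not tested.

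Leaving out either cell of a type gave 368 to 557 (Apod) and 0 to 27.7 (Apoe) per 10000 in VLMCs. It gave first-exon shares of 72.1% to 82.8% in VLMCs and 75.0% to 94.4% in Oligo5, start site shares of 91.9% to 97.2% and exon 2 inclusion of 77.7% to 85.0% in VLMCs. The displaced junction in Oligo5 ranged from 0% to 7.84%, since without Oligo5-2 none was left, and Apoe was lost without VLMC-2. The VLMC share in common isoforms was 82.0% to 92.6%. With 1 to 13 transcripts, depth limits all statements on Apoe and Ptgds.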
